A study of Equus caballus with 19 samples.

Results

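The genes described here are 10 members of the Wnt system in cultured horse tendon cells: the ligands WNT5A, WNT5B, WNT2 and WNT2B, the secreted antagonists SFRP1, SFRP2, SFRP4, DKK1 and DKK3, and AXIN2. They were found by gene name in both deposited tables, 10 of 29196 gene names. AXIN2 is neither a ligand nor an antagonist but an intracellular inhibitor that is itself a target of the pathway. Of the 10, 9 passed the filter on low values in the first batch and all 10 in the second, with WNT2B the gene left out of the first.

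Wnt ligands are secreted lipid-modified proteins that bind Frizzled receptors with LRP or ROR co-receptors. In the canonical branch this binding stabilises beta-catenin, which activates TCF/LEF target genes, whereas ligands such as WNT5A mostly act through ROR receptors on cell polarity and calcium. Secreted Frizzled-related proteins (SFRPs) bind the ligands and Dickkopf proteins such as DKK1 bind the LRP co-receptors, and in tendon the pathway has been linked to matrix turnover and to the loss of tenocyte character.

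The cells were primary adult tenocytes (passage 3 to 7, wild type) of the superficial digital flexor tendon, taken post-mortem from Thoroughbred horses, grown as 8 lines. The authors call the lines biological replicates, but that each line came from a separate horse is not stated in the sources used here. The p-values therefore measure the spread between lines or, where libraries are compared within each line, the spread of the change between lines. Each line was kept for 14 days in 3D gels of bovine type I collagen in medium with 10% fetal bovine serum. In the first batch, lines 1 to 5 were left unstimulated (control) or given the proinflammatory cytokine IL-1β at 1 nM (10 libraries). Lines 6 to 8 made up the second batch and were left unstimulated, given IL-1β at the same dose, or given it together with the IL-1 receptor antagonist protein IL1Ra at 100 ng/ml (9 libraries). No library of IL1Ra alone was analysed here, and each line and condition is 1 library. The comparisons ask how IL-1β changed these genes and whether IL1Ra altered that change.

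Values are DESeq2-normalised counts from bulk RNA sequencing, in 1 table per batch, so levels were compared only within a batch and not between genes. The sums per library were 43393903 to 49197980 normalised counts over lines 1 to 5 and 24964149 to 34602014 over lines 6 to 8. Of the tenocyte markers, COL1A1 was 453618 to 875669 in first-batch controls and 89921 to 297566 with IL-1β, SCX was 822 to 2110 and 9.69 to 205, and TNMD was at 0 in every first-batch library and at most 1.00 in the second. Of the 8 leukocyte markers, CD3E and CD79A never exceeded 1.07 and PTPRC never exceeded 6.46, but 4 exceeded 10 in a library. Among these CD68 was 56.4 to 173 in first-batch controls and 296 to 1359 with IL-1β, CD14 reached 2811 and ITGAX 279. The summed level of the 8 was 81.9 to 2153 in those controls and 359 to 3805 with IL-1β. Of the 6 endothelial markers CDH5 never exceeded 3.49. In first-batch controls and with IL-1β PECAM1 was 1.11 to 20.8 and 7.81 to 73.2. VWF and CLDN5 went the other way, at 9.53 to 44.6 and 0.964 to 15.0, and at 1.87 to 17.7 and 0 to 8.19. The sums of the 6 were 30.6 to 57.5 and 22.4 to 92.0. In the first batch the adipocyte sums (79.8 to 2745 in controls and 305 to 2313 with IL-1β) and skeletal muscle sums (0 to 67.5 and 0 to 3.20) overlapped. The tenocyte, pericyte and smooth muscle, and cartilage marker sums moved without overlap there. The sum of the 9 tenocyte markers in the table was 1085410 to 1841440 in controls and 427965 to 855967 with IL-1β. That of the 6 pericyte and smooth muscle markers was 20351 to 52311 and 5709 to 11925, and that of the 7 cartilage markers 7416 to 42963 and 101 to 1153, with COL2A1 at most 4.15 throughout. DCN, a tenocyte marker, went the other way, at 44076 to 93120 and 67408 to 132486. In the second batch DCN was 29947 to 55627 and 85794.5 to 170170. There the tenocyte sums (276123 to 905463 and 311382 to 473595) and pericyte and smooth muscle sums (3390 to 15672 and 2324 to 7912) overlapped. The cartilage sums did not (548 to 12924 and 67.8 to 348). The part of these shifts in the results below was not tested, and in bulk RNA fewer cells of a kind cannot be told apart from less RNA per cell.

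IL-1β lowered 3 of the secreted antagonists in the first batch: SFRP4 fell 46.7-fold, SFRP2 fell 18.8-fold and DKK1 fell 4.10-fold, and these were the members that were differentially expressed (DE). WNT2 was higher with IL-1β in all 8 lines of both batches, and SFRP2 and SFRP4 were lower in all 8. With the tenocyte line as a block, which compares the libraries within each line, WNT2 (9.22-fold) and WNT5A (2.72-fold) were also upregulated in the first batch and SFRP1 (2.27-fold) downregulated. These calls were kept for WNT2 whichever line was left out, but were lost for WNT5A without line 3, 4 or 5 and for SFRP1 without line 1 or 3.

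DE means an adjusted p under 0.05 with a Log2FC of at least 1 in either direction, from limma on log2(normalised count + 1), with p-values adjusted by Benjamini-Hochberg over every gene tested. In the first batch 0 of the 9 members tested were up and 3 were down, against 4.91% up and 7.9% down (12.8% in all) of the 14719 genes tested. With the block 2 members were up and 4 down, against 6% up and 10.2% down (16.2% in all). The median Log2FC was -0.32 over the 9 members and -0.0034 over all genes tested. Folds are read from that scale, so those of low-count genes are understated.

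Over the 3 lines of the second batch 0 of the 10 members were DE between IL-1β and control, against 0.341% of 16705 genes. With the block 1 member (WNT2) was up and 2 (SFRP2 and SFRP4) were down, against 2.59% up and 2.59% down (5.18% in all). The median Log2FC was -0.85 over the members and -0.01 over all genes. Without the block 1 member, SFRP4, had an unadjusted limma p under 0.05, against 11.4% of all genes. With the block WNT2, WNT5B, SFRP2 and SFRP4 did, against 3708 of 16705 genes.

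**Figure D1:**
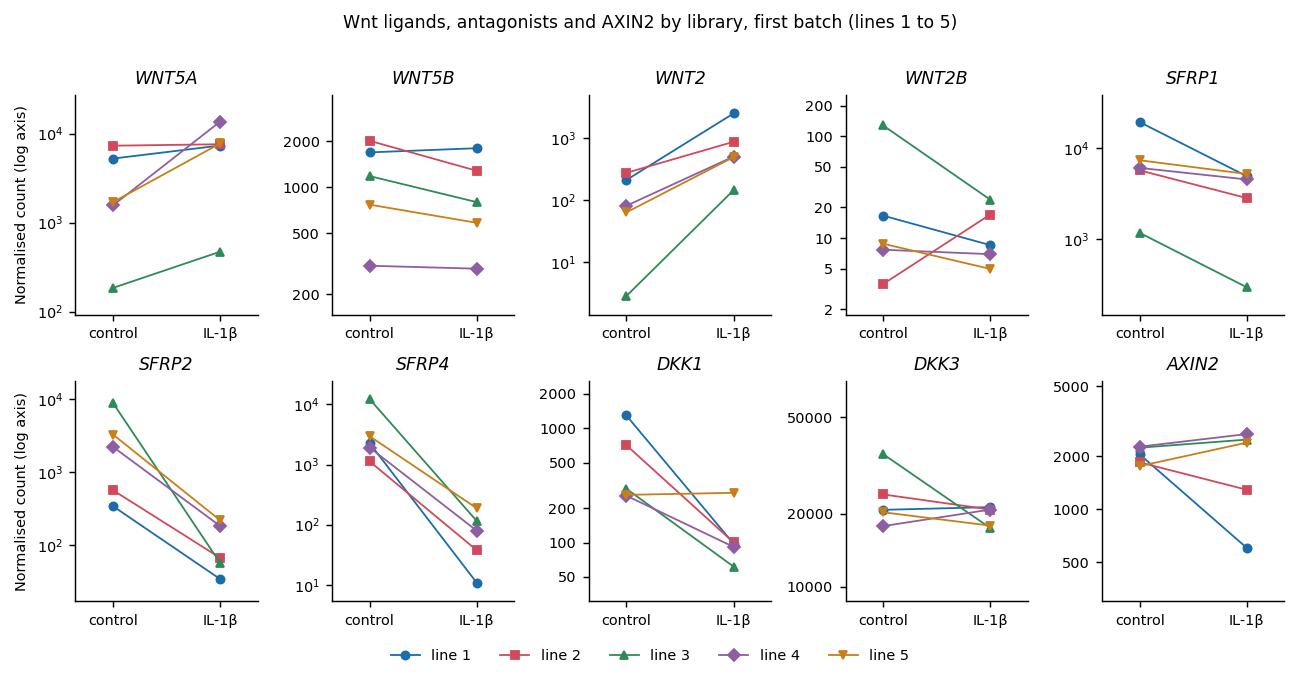
Normalised counts (log axis) of the 10 genes in the control and IL-1β library of each first-batch line, with 1 symbol and line per tenocyte line. The SFRP2 and SFRP4 lines all descend without overlap between conditions, the WNT2 lines all ascend, and line 3 lies lowest for WNT5A, WNT2 and SFRP1.

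Among the ligands, WNT2, a canonical ligand of mesenchymal cells, was higher with IL-1β in every line. In lines 1 to 5 its control and IL-1β counts were 208 and 2469, 272 and 862, 2.79 and 143, 80.0 and 497, and 62.5 and 488. The group means were 125 ± 111 and 892 ± 918 (SD, n = 5), and the groups overlapped because the IL-1β library of line 3 lay below the controls of lines 1 and 2. The Log2FC was 3.21 with an SE of 1.12 and a limma adjusted p of 0.0555, so WNT2 was not DE without the block, whereas with it the SE was 0.47 and the adjusted p 0.00271. In lines 6 to 8 the counts were 4.03 and 9.22, 51.1 and 757, and 77.8 and 1628, again higher in 3 of 3. Line 6 stayed below 10 normalised counts in both conditions. The Log2FC of 3.08 had a limma adjusted p of 0.736, and 0.0419 with the block. The latter was 0.000808 without line 6, but 0.260 without line 7 and 0.293 without line 8.

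WNT5A, the main ligand of the noncanonical branch, spread widely between lines. Its control and IL-1β counts were 5239 and 7347 in line 1, 7311 and 7595 in line 2, 184 and 471 in line 3, 1561 and 13647 in line 4, and 1697 and 7752 in line 5. All 5 lines were higher with IL-1β, by log2 ratios of 0.05 to 3.13, but the groups overlapped and the controls alone covered a 39.7-fold range. The Log2FC was 1.44 with an SE of 1.10 and an adjusted p (limma) of 0.363, and with the block an SE of 0.44 and an adjusted p of 0.0356, which became 0.0770, 0.0728 and 0.111 without line 3, 4 or 5. The second-batch pairs were 43.9 and 324 in line 6, 4240 and 3131 in line 7, and 2339 and 5012 in line 8. Line 7 went down while the other lines went up, and WNT5A was not DE there (Log2FC 1.17, 95% interval -4.24 to 6.59, limma adjusted p 0.926, and 0.404 with the block).

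WNT5B, its close paralogue, was lower with IL-1β in 7 of 8 lines, most in line 6. The first-batch pairs were 1690 and 1800, 2012 and 1280, 1182 and 799, 306 and 293, and 769 and 585, and only line 1 was not lower. The Log2FC of -0.32 had a 95% interval of -1.60 to 0.97 and was not DE (limma adjusted p 0.724, and 0.0877 with the block). Second-batch WNT5B went from 415 to 72.7 in line 6, from 1136 to 720 in line 7 and from 247 to 132 in line 8, with a Log2FC of -1.35 that was not DE (adjusted p 0.639 by limma, and 0.133 with the block).

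WNT2B was close to the filter. In lines 1 to 5 it went from 16.6 to 8.52, from 3.53 to 17.0, from 128 to 23.8, from 7.68 to 6.94 and from 8.80 to 4.97 with IL-1β, so that only the control of line 3 stood above the rest. In lines 6 to 8 it went from 8.09 to 27.9, from 17.1 to 2.17 and from 13.7 to 9.56. No common direction was seen, and the second-batch Log2FC was -0.44 with a 95% interval of -2.43 to 1.54.

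SFRP4 showed the largest fall of the members. Its control and IL-1β counts were 2259 and 10.8 in line 1, 1127 and 37.5 in line 2, 12227 and 115 in line 3, 1912 and 79.1 in line 4, and 2955 and 187 in line 5. Every IL-1β library lay below every control, and the means were 4096 ± 4593 and 85.9 ± 69.1 (SD, n = 5). The Log2FC was -5.55 with an SE of 0.79 and a limma adjusted p of 0.000810. In lines 6 to 8 the pairs were 1028 and 32.8, 235 and 6.58, and 135 and 2.11, also without overlap. There the Log2FC of -5.11 (SE 1.81) had a limma adjusted p of 0.320, and 0.0184 with the block (0.00371, 0.148 and 0.0967 without line 6, 7 or 8).

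SFRP2 also fell. In lines 1 to 5 its counts went from 339 to 33.7, from 562 to 66.1, from 8890 to 56.2, from 2215 to 181 and from 3276 to 217. The groups did not overlap (3056 ± 3478 in controls, 111 ± 82.2 with IL-1β, SD, n = 5), and line 3, the highest control, had the log2 ratio furthest from 0, -7.28 against -3.91 to -3.07 in the others. The Log2FC was -4.23 with an SE of 0.87 and a limma adjusted p of 0.00549. Over lines 6 to 8 SFRP2 went from 1285 to 71.4 in line 6, from 148 to 33.1 in line 7 and from 59.6 to 8.53 in line 8. The groups overlapped there, since the IL-1β library of line 6 lay above the control of line 8, and the Log2FC of -2.98 had a limma adjusted p of 0.506, and 0.0229 with the block (0.0203, 0.0915 and 0.161 without line 6, 7 or 8).

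SFRP1 was lowered less. The first-batch pairs were 19338 and 4911, 5703 and 2825, 1170 and 295, 6070 and 4530, and 7368 and 5204. All 5 lines were lower with IL-1β, but the groups overlapped because line 3 was low in both conditions. The Log2FC was -1.18 with an SE of 0.89 and a limma adjusted p of 0.355, and with the block an SE of 0.27 and an adjusted p of 0.0134. In that fit the Log2FC was under the threshold of 1 in size without line 1 or line 3 (-0.98 in both). Lines 7 and 8 went from 14563 to 4246 and from 25916 to 4116, whereas line 6 went from 733 to 1164. SFRP1 was not DE there (Log2FC -1.26, limma adjusted p 0.849, and 0.239 with the block). The Log2FC was -2.22 without line 6 (limma adjusted p 0.0365), -0.99 without line 7 (0.953) and -0.56 without line 8 (1.00).

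DKK1, which blocks the LRP co-receptors, was lower with IL-1β in 7 of 8 lines. In lines 1 to 4 it went from 1292 to 97.7, from 710 to 100.3, from 295 to 61.6 and from 257 to 91.6, and in line 5 it was 261 and 272. That IL-1β library of line 5 placed the groups in overlap. The Log2FC was -2.04 with an SE of 0.52 and a limma adjusted p of 0.0156, and 0.0701 when line 2 was left out. In lines 6 to 8 DKK1 went from 409 to 176, from 566 to 115 and from 651 to 230, without overlap, but was not DE (Log2FC -1.66, 95% interval -4.50 to 1.17, limma adjusted p 0.715, and 0.416 with the block).

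DKK3, a divergent Dickkopf protein, and AXIN2 did not pass the test in either batch. DKK3 ranged from 17773 to 35229 in first-batch controls and from 17468 to 21286 with IL-1β, with a Log2FC of -0.23 (95% interval -0.61 to 0.15, limma adjusted p 0.356). Line 3 was its highest control and went down by 1.01 on the log2 scale. Over lines 6 to 8 DKK3 went from 18372 to 10091, from 14263 to 13921 and from 9008 to 10117, with a Log2FC of -0.24 (95% interval -0.96 to 0.47).

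AXIN2, whose expression is commonly used as a readout of beta-catenin signalling, differed in direction between lines. It went from 2052 to 603 in line 1 and from 1850 to 1292 in line 2, and from 2243 to 2493, 2273 to 2681 and 1762 to 2398 in lines 3, 4 and 5. The Log2FC of -0.29 (95% interval -1.10 to 0.52, limma adjusted p 0.598) was 0.079 without line 1. In lines 6 to 8 it went from 1098 to 2117, from 790 to 419 and from 673 to 872.

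The lines differed widely in the level of these genes. In the first batch line 3 had the lowest control of WNT5A, WNT2 and SFRP1 and the highest of WNT2B, SFRP2, SFRP4 and DKK3. In the second batch line 6 had the lowest control of WNT5A, WNT2, WNT2B, SFRP1 and DKK1 and the highest of SFRP2, SFRP4, DKK3 and AXIN2. Line 8 had the lowest of WNT5B, SFRP2, SFRP4, DKK3 and AXIN2 and the highest of WNT2, SFRP1 and DKK1. The SE of WNT2 in the first batch was 1.12 without the block and 0.47 with it, and that of SFRP1 was 0.89 and 0.27. DKK1, with an SE of 0.52 and 0.51, hardly moved.

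**Figure D2:**
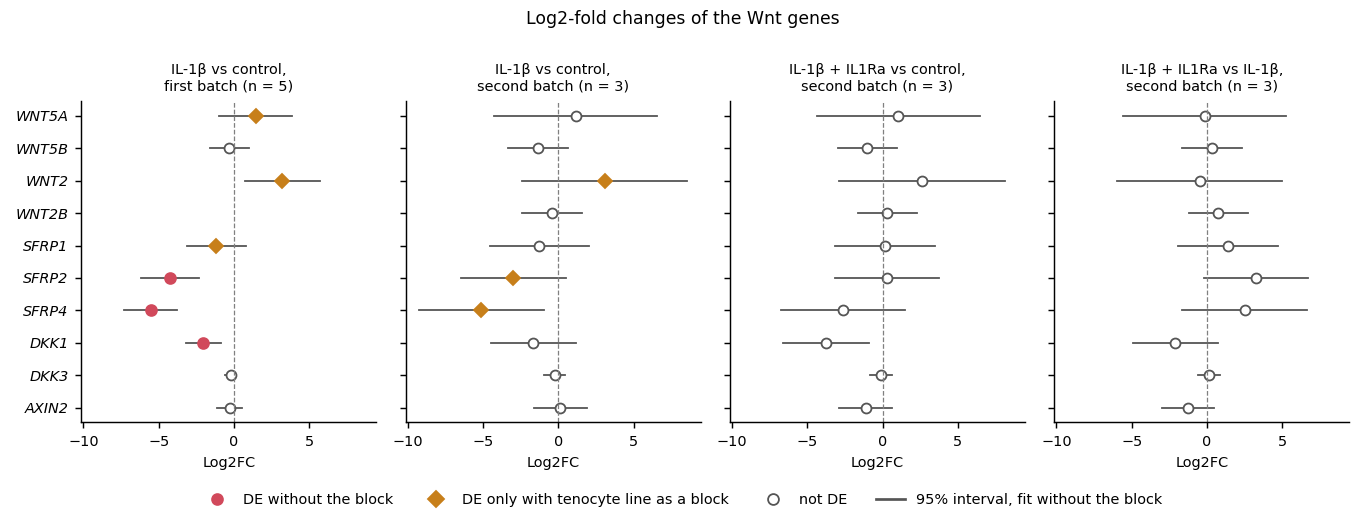
Log2FC of each gene in the 4 comparisons, with the 95% interval of the limma fit without the block and symbols for genes DE without the block, DE only with it, or not DE. SFRP2, SFRP4 and DKK1 are DE without the block in the first batch, and the intervals of the second batch are wider, reaching -9.25 to -0.98 for SFRP4.

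The second batch also asked what IL1Ra did to these changes. With IL-1β + IL1Ra, SFRP2 lay at most 0.71 from its control on the log2 scale in each line, WNT2 was above control in 3 of 3, SFRP4 was near control in line 6 but not in lines 7 and 8, and DKK1 was below control in 3 of 3. Against control, 0 of the 10 members were DE by limma with IL-1β + IL1Ra, with or without the block (against 0.012% and 0.251% of 16705 genes). Likewise 0 members were DE between IL-1β + IL1Ra and IL-1β, with or without the block (0% and 0.00599% of genes). Without the block an unadjusted limma p under 0.05 was reached by 1 member (DKK1) against control (5.67% of all genes). Against IL-1β it was reached by 0 members (2.78% of all genes). With the block it was reached by WNT2, SFRP4, DKK1 and AXIN2 against control (2233 of 16705 genes). Against IL-1β these were SFRP1, SFRP2, SFRP4 and AXIN2 (1400 of 16705 genes). The 2 comparisons share the IL-1β + IL1Ra libraries, and the IL-1β and IL1Ra comparisons with control share the control libraries, so they are not independent. The share of the IL-1β change left is the log2 difference from control with both agents, as a percent of that with IL-1β alone, given only where IL-1β changed the gene by at least 1 on the log2 scale in that line.

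**Figure D3:**
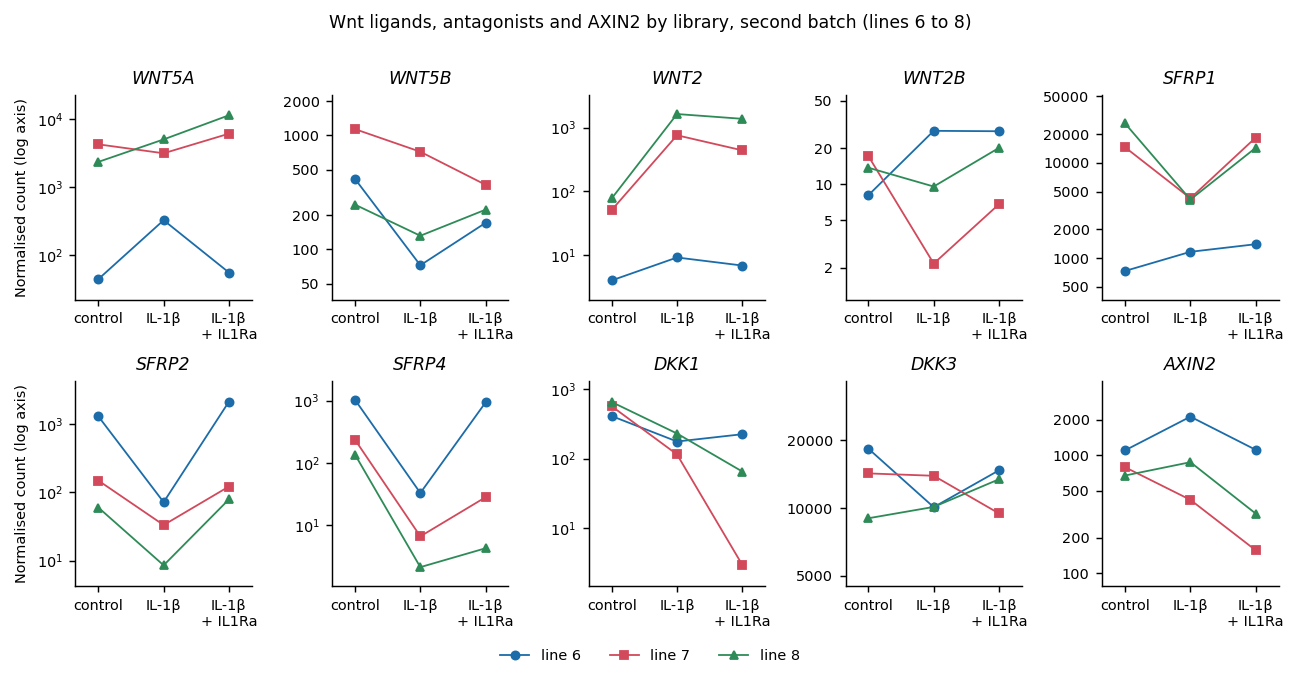
Normalised counts (log axis) of the 10 genes in control, IL-1β and IL-1β + IL1Ra libraries of lines 6 to 8, joined by line. SFRP2 forms a V in every line, WNT2 stays high after IL-1β in lines 7 and 8, and DKK1 is lowest in the IL-1β + IL1Ra libraries of lines 7 and 8.

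SFRP2 counts in control, IL-1β and IL-1β + IL1Ra were 1285, 71.4 and 2106 in line 6, 148, 33.1 and 121 in line 7, and 59.6, 8.53 and 78.5 in line 8. The 3 lines were all higher with IL1Ra than with IL-1β alone, without overlap between these groups, and the share left was -17.2%, 13.5% and -14.6%. The Log2FC of IL-1β + IL1Ra against IL-1β was 3.25 (SE 1.51) with a limma adjusted p of 1.00, and 0.166 with the block, so it was not DE. Against control the Log2FC was 0.27 with a 95% interval of -3.19 to 3.73.

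SFRP4 differed from line to line. It reached 937 in line 6 with IL-1β + IL1Ra, against a control of 1028, but only 28.0 in line 7 and 4.24 in line 8, against controls of 235 and 135. The share left was 2.73%, 60.9% and 86.2%. SFRP4 was above the IL-1β library in 3 of 3 lines (Log2FC 2.50, 95% interval -1.64 to 6.63) and below control in 3 of 3 (Log2FC -2.62, 95% interval -6.75 to 1.52). The SE of both was 1.81 without the block and 0.81 with it. With the block neither was DE (limma adjusted p 0.456 against IL-1β and 0.241 against control).

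For SFRP1, the IL-1β + IL1Ra libraries gave 1399 in line 6, 18444 in line 7 and 14391 in line 8. This was above the IL-1β library of each line, by log2 ratios of 0.26 to 2.12. The Log2FC against IL-1β was 1.40, with an SE of 1.45 without the block and 0.55 with it. It was not DE (limma adjusted p 0.554 with the block). In lines 7 and 8, where IL-1β had lowered SFRP1, the share left was -19.2% and 32.0%.

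For WNT2 the difference from control stayed large. Its IL-1β + IL1Ra counts were 6.89, 439 and 1369 in lines 6, 7 and 8, below the 9.22, 757 and 1628 of IL-1β alone, and the share left was 63.5%, 79.7% and 94.3%. The Log2FC against control was 2.62 (SE 2.40), not DE with a limma adjusted p of 1.00, and 0.184 with the block. Leaving out line 6 and keeping the block, it was 3.60 with an adjusted p of 0.00281 (limma), against 2.39 (0.609) without line 7 and 1.86 (0.784) without line 8. WNT5A was 55.0, 6087 and 11360 in the same libraries, near control in line 6 and above both other conditions in lines 7 and 8.

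DKK1 showed no return towards control in lines 7 and 8. In control, IL-1β and IL-1β + IL1Ra it was 409, 176 and 225 in line 6, 566, 115 and 2.99 in line 7, and 651, 230 and 65.4 in line 8. Lines 7 and 8 were lower with IL1Ra than with IL-1β alone, and the shares left were 71.3%, 313% and 220%. The IL-1β + IL1Ra libraries did not overlap the controls. The Log2FC against control was -3.77 (95% interval -6.60 to -0.93), with an unadjusted limma p of 0.0152, an adjusted p of 0.752, and 0.201 with the block.

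AXIN2 was lower with IL-1β + IL1Ra than with IL-1β in all 3 lines, at 1109, 157 and 320 in lines 6, 7 and 8 against 2117, 419 and 872. The groups overlapped, and the Log2FC of -1.26 (95% interval -3.01 to 0.49) was not DE (limma adjusted p 1.00, and 0.452 with the block). DKK3 was 14726, 9462 and 13432 in these libraries, at most 0.59 from its control on the log2 scale in each line. WNT5B (171, 369 and 223) was below its control in all 3 lines, and WNT2B (27.7, 6.80 and 20.1) had no common direction.

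**Figure D4:**
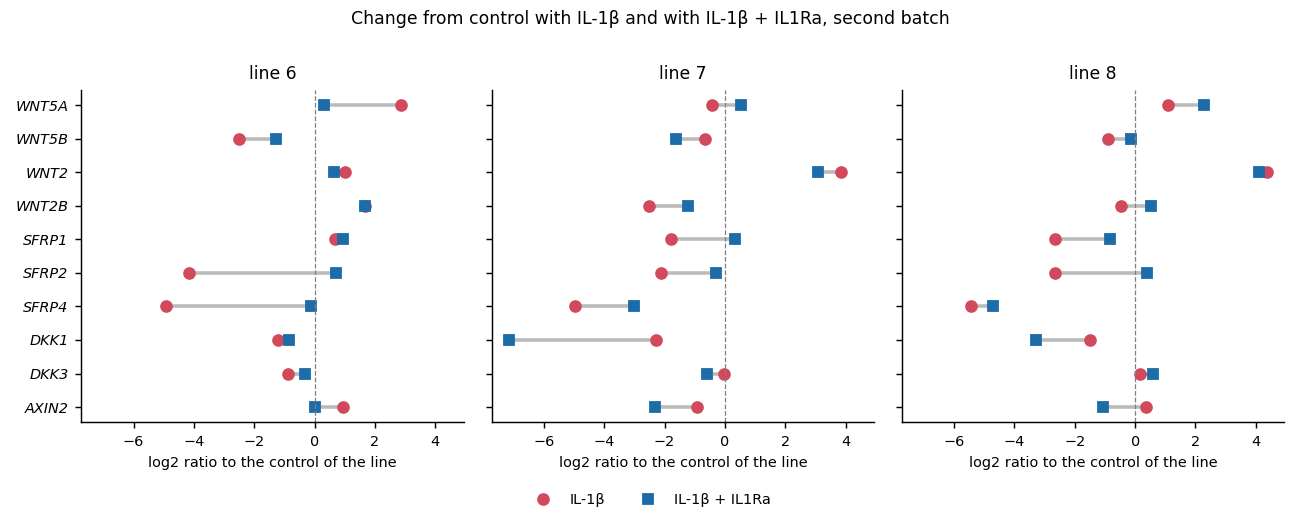
Log2 ratio to the control of the same line for IL-1β (circles) and IL-1β + IL1Ra (squares), 1 panel per line. The squares of SFRP2 lie at most 0.71 from 0 in every line, those of WNT2 lie above 0 in every line, and that of DKK1 in line 7 lies at -7.15.

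Other Wnt pathway genes were read from lists of ligands, antagonists, receptors, R-spondin genes, secretion genes, intracellular genes, targets and the polarity and calcium branch. Of the 19 ligands of the list, members included, 10 were tested in the first batch, where 3 rose and 1 fell (40%). Over all 14719 genes tested there 4.91% rose and 7.9% fell (12.8% in all). WNT9A rose from 571 ± 56.1 to 1667 ± 549 (SD, n = 5, Log2FC 1.48, limma adjusted p 0.00116) and WNT11 from 812 ± 272 to 3253 ± 1738 (Log2FC 1.92, adjusted p 0.00377). WNT6 rose from 9.70 ± 6.34 to 120 ± 127 (Log2FC 2.84) and WNT10B fell from 219 ± 110 to 83.4 ± 53.6 (Log2FC -1.45, limma adjusted p 0.0356, and 0.0534 with the block). WNT9A and WNT11 were higher in all 8 lines, and in the second batch WNT9A was upregulated only with the block (Log2FC 1.68, limma adjusted p 0.416, and 0.0232 with the block). WLS, the carrier that takes Wnt proteins to the cell surface, rose from 12069 ± 3851 to 29998 ± 7888 in the first batch (Log2FC 1.34, limma adjusted p 0.00326), and it was higher in all 8 lines. In the second batch WLS was upregulated only with the block.

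Of the 15 secreted antagonists, 10 were tested in the first batch. There 0 rose and 4 fell (40%), against 4.91% up and 7.9% down of all genes. Those that fell were the members SFRP2, SFRP4 and DKK1, and DKK2. DKK2 is a Dickkopf protein like DKK1. Its controls in lines 1 to 5 were 142, 76.0, 6.50, 21.2 and 10.9, and with IL-1β it was listed at 0 in lines 1, 3 and 4, at 20.3 in line 2 and at 0.97 in line 5. In lines 6 to 8 its controls were 10.1, 47.0 and 19.1 and every IL-1β library was listed at 0, so no fold is given. DKK2 was downregulated in that batch only with the block.

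Of the 18 receptor genes, 17 were tested in the first batch. There 0 rose and 4 fell (23.5%), against 4.91% up and 7.9% down of all genes. The WNT5A receptors fell: ROR1 went from 470 ± 180 to 81.1 ± 27.4 (SD, n = 5, Log2FC -2.50, limma adjusted p 0.000319) and ROR2 from 3448 ± 1576 to 962 ± 480 (Log2FC -1.88, limma adjusted p 0.00497). FZD7 fell from 2135 ± 253 to 999 ± 162, and KREMEN1, a receptor of Dickkopf proteins, from 487 ± 263 to 132 ± 84.7. All 4 were lower in all 8 lines. In the second batch 1 of 17 receptor genes rose and 1 fell with the block, against 2.59% up and 2.59% down of all genes. These were FZD10 (32.0 ± 21.9 to 350 ± 315, SD, n = 3, limma adjusted p 0.237, and 0.0135 with the block) and ROR1 (344 ± 190 to 61.6 ± 42.5, limma adjusted p 0.220, and 0.0194 with the block).

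Of 5 R-spondin system genes tested in the first batch 0 rose and 1 fell (20%, against 4.91% up and 7.9% down of all genes). This was LGR4, an R-spondin receptor (1670 ± 222 to 708 ± 209, SD, n = 5, Log2FC -1.27). In the second batch LGR4 fell only with the block. LGR6 rose in the first batch only with the block (Log2FC 2.00, limma adjusted p 0.252, and 0.00311 with the block). Among 22 cytoplasmic and nuclear genes 1 rose and 2 fell, 13.6% of them against 12.8% of all genes. TCF7, a transcription factor of the pathway, rose from 1819 ± 908 to 4903 ± 1005 (Log2FC 1.56, limma adjusted p 0.00603), while TCF7L1, mostly a repressor, fell from 1725 ± 633 to 519 ± 235 (Log2FC -1.74) and APC2 fell from 384 ± 222 to 132 ± 32.7. TCF7L1 fell in the second batch only with the block. In the second batch TCF7 was at 1081 ± 347 in controls, 2726 ± 464 with IL-1β and 1136 ± 306 with IL-1β + IL1Ra (SD, n = 3), and it was upregulated by IL-1β only with the block (limma adjusted p 0.125, and 0.0354 with the block). The difference between IL-1β + IL1Ra and IL-1β was not DE (Log2FC -1.29, limma adjusted p 1.00, and 0.248 with the block).

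Of 12 feedback and target genes of beta-catenin in the first batch, 1 rose (TCF7) and 2 fell (DKK1, and TNFRSF19 with a Log2FC of -3.38). This was 25% of them, against 12.8% of all genes. NKD1, a feedback inhibitor, rose only with the block (Log2FC 1.65, limma adjusted p 0.0741, and 0.0171 with the block). Of 17 polarity and calcium genes 0 rose and 5 fell (29.4%), against 4.91% up and 7.9% down of all genes. Those that fell were PRICKLE2 (Log2FC -1.39), CELSR2 (-2.34), CAMK2D (-1.81), NFATC1 (-1.45) and NFATC2 (-1.96). With the block CELSR1 fell as well (Log2FC -1.82). NFATC1 fell from 2328 ± 457 to 872 ± 278 (SD, n = 5) and was lower in all 8 lines. In the second batch 0 of 16 polarity and calcium genes were DE with IL-1β. With the block 0 rose and 2 fell, against 2.59% up and 2.59% down of all genes.

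**Figure D5:**
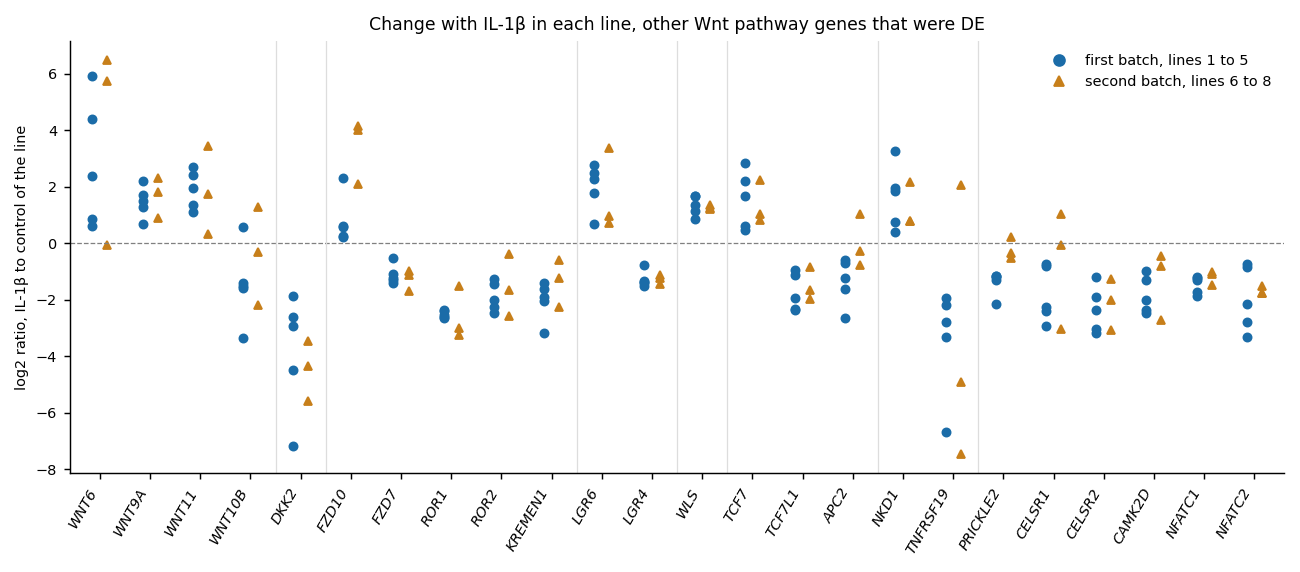
Log2 ratio of IL-1β to control in each line for the 24 other pathway genes that were DE, with circles for the first batch and triangles for the second, and vertical rules between gene groups. The ROR1 and ROR2 points all lie below 0 and the WNT9A, WNT11 and WLS points all lie above it, whereas TNFRSF19 spans -7.44 to 2.08.

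For each member tested in the first batch the 2 most similar genes were found by Pearson's r of log2 values over its 10 libraries. These coefficients are a description over libraries that share lines and condition. WNT2 was most like RGS2 (r = 0.981) and SINHCAF (0.976), SFRP2 like UBE2QL1 (0.986) and ZBTB47 (0.980), and SFRP4 like HSPB2 (0.984) and AGPAT3 (0.982). DKK1 was most like SGIP1 (0.972) and FANCI (0.968), SFRP1 like LDB2 (0.985) and LRRN3 (0.976), and WNT5A like STC1 (0.968) and S100A4 (0.966). WNT5B was most like BANF1 (0.965) and ENC1 (0.955), DKK3 like PGPEP1 (0.950) and TPM1 (0.911), and AXIN2 like TTC30B (0.951) and TCTN2 (0.934).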

How the data were processed

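RNA sequencing of 19 libraries was analysed, 10 of the first batch (lines 1 to 5) and 9 of the second (lines 6 to 8). The deposited signal values are normalised counts: the authors quantified reads with Salmon against transcripts of the EquCab3.0 build, obtained gene-level values through tximport and scaled these by the size factors of DESeq2 (version 1.36, R 4.2.1), separately for each batch. The values are normalised and not raw counts, so no count model was used. All columns were mapped to a sample (0 unmapped).

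A gene was tested when it reached 10 normalised counts in 5 or more libraries of the first batch, or 3 or more of the second. The fit used limma 3.58.1 (lmFit, eBayes with trend, in R 4.3.3) on log2(normalised count + 1), with no covariate, and p-values were adjusted by Benjamini-Hochberg over all genes tested. The 3 conditions of the second batch shared 1 fit. The fit was run on simulated data only as a check of the code. The simulated lines differed less than these lines did for WNT5A and WNT2, so the run does not measure error here. Libraries of 1 line come from the same cells, so the line pairs them: deviations from the condition means correlated at 0.351 to 0.578 within a line (5 pairs) in the first batch and 0.535 to 0.794 (9 pairs) in the second, against at most 0.288 between lines. Values from the fit with the line as a replicate block stand beside those they change.

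The 10 members were named throughout. From each pathway list the genes DE in any comparison, with or without the block, were named (at most the 6 largest per list and comparison), and for each member the 2 genes of highest correlation. Members and lists were chosen with earlier results of these data known. BCL9L, CCN4, TLE1 and CSNK1E of the lists, and sequences of the genes, were not analysed here. Alternatives were other pseudocounts, scalings and filters, eBayes with no trend, fits restricted to 2 conditions, adjusted p alone, the block, and each line left out, and the block with each line left out was added after seeing the data. Each line and condition has 1 culture, so culture error within a line is unknown. Counting error cannot be given because read counts were not used.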

Additional observations from a re-analysis of the deposited data

Results flagged for a closer look

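In groups of 5 libraries of the first batch, a library was marked when its gap to the nearest other library took more than 0.71 of the range of the group on the log2(normalised count + 1) scale. This was looked at in 30 groups of the members (control, IL-1β, and the change between them) and marked 3. Chance marks about 1 group in 20. Line 3 with IL-1β stood apart for WNT5A (471 normalised counts, gap 0.816 of the range) and for SFRP1 (295 normalised counts, gap 0.787), low in both. Line 3 also stood apart in the change of SFRP2, which fell by 7.28 on the log2 scale there (gap 0.800).

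Among 72 groups of the other named pathway genes 6 were marked. With IL-1β these were DKK2 in line 2 (20.3 normalised counts, gap 0.778), APC2 in line 3 (gap 0.741) and NFATC2 in line 3 (gap 0.716). In the change with IL-1β they were LGR4 in line 4 (gap 0.736), PRICKLE2 in line 3 (gap 0.844) and FZD10 in line 2 (gap 0.806). No member or named gene moved one way in all lines of the first batch and the other way in all lines of the second.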

How the results depend on the processing

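In the first batch SFRP2 and SFRP4 stayed DE in all 20 fits, with Log2FC of -4.52 to -3.47 and -5.94 to -5.04. DKK1 was DE in 17 of 20, and not without line 2, or with the block without line 2 or line 3. The members DE numbered 3, and 2 to 4 when a line was left out. They numbered 6 with the line as a replicate block, and 3 to 5 when a line was also left out of that fit. WNT2 was DE in 9 of the 20 fits (limma adjusted p 0.00271 to 0.147), SFRP1 in 4 (0.0134 to 0.503) and WNT5A in 3 (0.0231 to 0.626). Of the other pathway genes 20 were DE, 35 by adjusted p alone, 15 to 18 when a line was left out, and 22 with the block (20 to 24 when a line was also left out).

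In the second batch the calls depended on the block and on lines 7 and 8: with the block 865 genes were DE between IL-1β and control, 1421 without line 6, 0 without line 7 and 33 without line 8, and WNT2, SFRP2 and SFRP4 each lost their call without line 7 or line 8. Between IL-1β and control the members DE numbered 0, 3 with the block, 0 to 2 when a line was left out (2 without line 6) and 0 to 4 with the block and a line left out (4 without line 6). For the other pathway genes these were 0, 10, 0 to 2 and 0 to 16 (1 without line 8). Between IL-1β + IL1Ra and control 3 members (WNT2, SFRP4 and DKK1) and 3 other pathway genes were DE only with the block and without line 6. Against IL-1β these were 0 members and 1 other pathway gene. In that fit of lines 7 and 8 alone, 537 of all 16707 genes tested were DE against control and 172 against IL-1β. The cause was not tested.

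Directions turned only where a line was left out, with the same Log2FC in both fits. In the first batch AXIN2 was 0.079 without line 1 (-0.47 to 0.079 over the lines left out). For IL-1β against control, DKK3 was 0.066 (-0.45 to 0.066) and AXIN2 -0.27 (-0.27 to 0.66) without line 6, and WNT2B 0.59 (-1.50 to 0.59) without line 7. For IL-1β + IL1Ra against control, WNT2B was -0.35 (-0.35 to 1.09) and SFRP1 -0.25 (-0.25 to 0.64) without line 6, and DKK3 0.13 (-0.46 to 0.13) without line 7. Against IL-1β, WNT5A was 1.07 (-0.79 to 1.07), WNT5B -0.10 (-0.10 to 0.99) and DKK3 -0.074 (-0.074 to 0.48) without line 6, and DKK3 -0.0058 without line 8. The median share of the IL-1β change left was 60.9% over 19 values of a member in a line. It was 60.2% and 63.2% with pseudocounts of 0.5 and 8 (19 and 18 values). These values pool different members and lines, with an SD of 87.6 and a range of -19.2% to 313%. The median is therefore not a share common to the members. Low counts limit WNT2B, and WNT2 in line 6 and in the control of line 3 (2.79). They also limit the shares left of DKK1 in line 7 (2.99 with IL-1β + IL1Ra) and SFRP4 in line 7 (6.58 with IL-1β). The same holds in line 8 for SFRP4 (2.11 with IL-1β, 4.24 with IL-1β + IL1Ra) and SFRP2 (8.53 with IL-1β).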

Other observations

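Many Wnt ligands and antagonists were close to 0 in these cultures. In the first batch WNT3, WNT3A and WNT7A were listed at 0 in all 10 libraries, WNT1 and WNT8B in 9, and the highest value of WNT4 was 14.4 normalised counts. The antagonist CER1 was listed at 0 in all 10 libraries, and WIF1 reached at most 6.25 and SOSTDC1 at most 4.63. In the second batch WNT3A, WNT9B and WIF1 were listed at 0 in all 9 libraries.

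WNT6, which rose in the first batch, did not pass the filter in the second, where it was listed at 0 in the controls of lines 6 and 8 and at 4.25 in that of line 7. With IL-1β it was 88.3, 3.99 and 52.2 in lines 6, 7 and 8, and with IL-1β + IL1Ra 9.73, 0 and 4.55. WNT11 in lines 6 to 8 was 331, 410 and 393 in control, 413, 4447 and 1335 with IL-1β, and 944, 481 and 300.0 with IL-1β + IL1Ra, so that line 6 differed in order from lines 7 and 8. ROR2 was 2181, 2303 and 1684 in the same controls, 1690, 383 and 532 with IL-1β, and 2658, 798 and 1118 with IL-1β + IL1Ra, higher with IL1Ra than with IL-1β alone in 3 of 3 lines (Log2FC 0.93, limma adjusted p 1.00, and 0.572 with the block).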
